A study of Mus musculus with 16 samples.

Results

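The nuclear-encoded oxidative phosphorylation genes were taken as every line of the day 5 and day 7 tables whose symbol starts with Nduf, Uqcr or Atp5, is Sdha, Sdhb, Sdhc or Sdhd, or is a cytochrome c oxidase name from Cox4 to Cox8 with a following letter a, b or c, at a mean of at least 1 TPM over the libraries of a day. TPM scales each library to a fixed sum and corrects for transcript length, so a value is a share of the mRNA pool. The rule matched 110 lines on day 5 and 107 on day 7, and 98 of the 55471 lines of the tables passed the minimum. Of these 98 members, 78 encode subunits of the complexes: 36 of complex I, 4 of complex II, 8 of complex III, 13 of complex IV and 17 of complex V. The other 20 are 8 assembly factors of complex I, the supercomplex factor Cox7a2l, and 11 copies, pseudogenes or repeated lines. The 12 matching lines under the minimum were 8 such copies and the tissue-specific subunits Cox6a2, Cox7b2, Cox8b and Cox8c, known from muscle, brown fat or testis. The symbol pattern misses Cox4i1, Cox4i2, Cyc1 and Cycs, whose values are given separately.

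The cells were neural stem cells (NSC) from cortices of C57BL/6 mouse embryos at embryonic days 15 to 16, grown as monolayers and transduced with a lentivirus that expressed either a scrambled short hairpin RNA (shRNA CON) or 1 shRNA against the long noncoding RNA RUS (shRNA RUS). Embryos of both sexes were pooled. PolyA-selected RNA was sequenced on day 5 and day 7 after seeding, and the growth medium with FGF2 was replaced on day 5 by differentiation medium, so day and medium cannot be told apart. Each of the 4 groups, shRNA CON and shRNA RUS on each day, has 4 libraries. The labels speak of experiments without saying whether the replicates were separate dissections, so the p-values measure the spread between these libraries.

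Oxidative phosphorylation takes place in the inner mitochondrial membrane. Complex I (NADH dehydrogenase) and complex II (succinate dehydrogenase) pass electrons to ubiquinone, complex III passes them to cytochrome c, complex IV reduces oxygen, and complex V (ATP synthase) uses the proton gradient that complexes I, III and IV build to make ATP. Most subunits are encoded in the nucleus, a few are encoded in mitochondrial DNA, and neural progenitors are known to rely more on glycolysis than neurons, which depend on oxidative phosphorylation.

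The tables hold no read counts, so the depth behind a value is unknown. Every library summed to about 1000000 TPM, with 25615 to 29126 lines above 0. All 8 NSC and radial glia markers were detected, with a summed scaled TPM of 12500 to 14700 in day 5 shRNA CON and 17800 to 21300 in day 5 shRNA RUS, while skeletal and cardiac muscle markers summed to 0.818 to 1.47 over all libraries. The targeted transcript Gm20754 (RUS) was near the detection limit. It had 0.24, 0.11, 0.18 and 0.16 TPM in the shRNA CON libraries of day 5 and 0.05, 0, 0.12 and 0.32 TPM in those labelled shRNA RUS. On day 7 it had 0.7, 0.72, 0.26 and 0.54 TPM against 0.54, 0.38, 0 and 0.04 TPM. The groups overlapped on both days and neither difference passed the test (log2 fold change -0.40, adjusted p = 0.519, and -1.28, adjusted p = 0.114). The day 5 library labelled shRNA RUS replicate 4 had the highest Gm20754 value of its day and also stood apart in the genes described here. Its median log2 level over the 78 subunits, relative to the day 5 shRNA CON mean, was 0.0581 against 0.352 to 0.378 in the other 3 libraries of its group. In some other measures it lay with its group. All 4 day 5 shRNA RUS libraries had proliferation marker sums of 391 to 438 scaled TPM against 697 to 731 in the controls. Their astrocyte marker sums were 5170 to 5300 against 4010 to 4140. In ribosomal protein sums the library labelled replicate 4 lay inside the control range. The cytosolic sum was 68784.3 (controls 59559.5 to 71968.5, rest of its group 85699.7 to 89491.4). The mitochondrial ribosomal sum was 6133.3 (controls 5534.3 to 6632.9, rest of its group 7605.2 to 7672.3). Day 5 counts that moved without the library labelled shRNA RUS replicate 4 are therefore also given without it. When it was left out, 27 of the 27 day 5 calls among the 44 named members were kept and 4 were gained.

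The summed TPM of the 78 subunits, as deposited, is the share of the mRNA pool that the cells gave to these complexes. In day 5 shRNA CON it was 28517.5, 31516.4, 30704.1 and 32229.2 (30740 ± 1610, SD, n = 4), or 3.07% of the pool. In day 5 shRNA RUS it was 34512.8, 34973.6, 35542.8 and 30483.1 (33880 ± 2300, n = 4), or 3.39%. The first 3 of these lay above every control and the library labelled replicate 4 lay inside the control range, so the groups overlapped. On day 7 the sum was 24247.9, 23573, 23090.1 and 21733.3 in shRNA CON (23160 ± 1060, n = 4, 2.31%) and 18568.3, 18578, 18925.2 and 18390.5 in shRNA RUS (18620 ± 224, n = 4, 1.86%). The day 7 groups did not overlap, and all day 7 libraries lay below all day 5 libraries. The means of the 13 subunits encoded in mitochondrial DNA followed another order: their deposited sum was 65390 ± 4500, 56210 ± 7770, 74940 ± 7730 and 81970 ± 4650 TPM in the same 4 groups. The shRNA CON and shRNA RUS libraries overlapped on day 5 (59172.9 to 69223.8 and 47274.3 to 65827.8) and on day 7 (69125.4 to 86280.9 and 76528.7 to 87641). Divided by library factors, the 4 means were 67270, 64270, 69400 and 75040. The ratio of the mitochondrial to the nuclear sum was 1.84 to 2.28 in day 5 shRNA CON and 1.33 to 2.16 in day 5 shRNA RUS. On day 7 it was 2.85 to 3.97 in shRNA CON and 4.04 to 4.72 in shRNA RUS. In such bulk cultures, fewer cells of a type and less RNA per cell cannot be told apart.

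**Figure D1:**
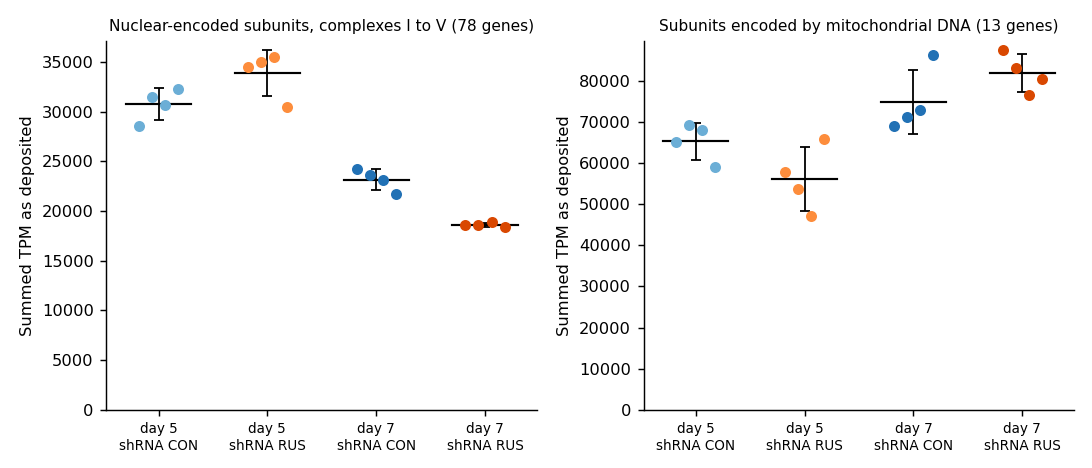
Summed TPM as deposited (vertical axes, from 0) for each library in the 4 groups of shRNA and day; points are libraries, and the bar and whiskers are the mean and SD of 4 libraries. The mean nuclear subunit sum was highest, at 33880, in day 5 shRNA RUS and lowest, at 18620, in day 7 shRNA RUS. The mean mitochondrially encoded sum was highest, at 81970, in day 7 shRNA RUS, whose libraries overlapped those of its control.

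To ask what the shRNA against RUS did to these genes on day 5, each library was divided by a factor from all expressed genes (scaled TPM) and limma was fitted to log2(scaled TPM + 0.1) over all 22581 lines with a mean of at least 0.1 TPM. Subunits of all 5 complexes rose. At an adjusted p under 0.05, 42 of the 98 members were higher in shRNA RUS and 6 were lower, where 14.8% of all lines were higher and 17.9% lower. Of the 78 subunits 40 rose and 6 fell, with a median log2 fold change of 0.32 against -0.06 for all lines. The direction was shared by the 5 complexes. In complex I 16 of 36 rose and 3 fell (median 0.26), in complex II all 4 rose (0.31), in complex III 4 of 8 rose (0.35), in complex IV 6 of 13 rose and 2 fell (0.32), and in complex V 10 of 17 rose and 1 fell (0.33). How many members passed depended on the scaling: 29 rose and 14 fell with TPM as deposited, 21 and 10 after quantile normalization, and 22 and 16 with factors from genes of at least 100 TPM, while the median over the subunits was 0.16, 0.11 and 0.11. Without the library labelled shRNA RUS replicate 4, 57 members rose and 5 fell, where 17.4% of all lines were then higher and 20.3% lower. By complex, 22 rose and 3 fell in complex I (median 0.345), 4 rose in complex II (0.325) and 6 in complex III (0.441). In complex IV 9 rose and 2 fell (0.384), and in complex V 13 rose (0.367). Day 5 shRNA CON replicate 1 was the lowest control, with a median log2 level over the subunits of -0.165 against 0.0129 to 0.0818. Without that control library the medians by complex were smaller, at 0.185 to 0.313.

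The complexes also hold groups of subunits with separate roles. The 7 core subunits of complex I, which hold the flavin and the iron-sulphur clusters, had a day 5 median log2 fold change of 0.47 with 5 higher and 1 lower, and the 29 supernumerary subunits had 0.24 with 11 higher and 2 lower. Read against the 14.8% of all lines that were higher and 17.9% that were lower, 71.4% and 37.9% of both groups were higher and 14.3% and 6.9% lower. In complex V, the 5 subunits of the catalytic F1 head had a median of 0.40, the 3 genes of the c-ring 0.33, the 4 of the peripheral stalk 0.26 and the 5 other membrane subunits 0.39. Without the library labelled shRNA RUS replicate 4, 5 core subunits rose and 0 fell (median 0.54), as the fall of Ndufv2 no longer passed (-0.19, adjusted p = 0.0844), while 17 supernumerary subunits rose and 3 fell (0.33), and the 4 groups of complex V had medians of 0.31 to 0.46. These groups are small, and no difference between them was tested.

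On day 7 the direction was the opposite. In shRNA RUS 71 of 95 members were lower and 2 were higher, where 25.8% of 24606 lines were lower and 23.4% higher. Of the 78 subunits 60 fell and 2 rose, with a median log2 fold change of -0.31 against -0.03 for all lines. In complex I 27 of 36 fell (median -0.32), in complex II 2 of 4 (-0.12), in complex III 6 of 8 (-0.23), in complex IV 10 of 13 (-0.37) and in complex V 15 of 17 (-0.31). The control and shRNA RUS libraries did not overlap for 67 members that were lower and 1 that was higher, against 25.4% and 21.5% of all lines. The day 5 libraries had not overlapped for 29 higher and 6 lower members, against 14.1% and 18.7% of all lines. Without the library labelled shRNA RUS replicate 4 these were 60 and 6 members, on 3 against 4 libraries, against 19.2% and 24.7%. Under the other scalings 64 to 74 members fell and 2 to 6 rose.

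The same groups were counted on day 7. Of the 7 core subunits 2 fell on day 7 (28.6%, near the 25.8% of all lines), with a median of -0.09. Of the 29 supernumerary subunits 25 fell (86.2%), with a median of -0.39, and the difference between both groups was not tested. Of the F1 subunits 3 of 5 fell (median -0.10), and all 3 c-ring genes (-0.37), all 4 stalk genes (-0.26) and all 5 other membrane subunits (-0.33) fell.

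**Figure D2:**
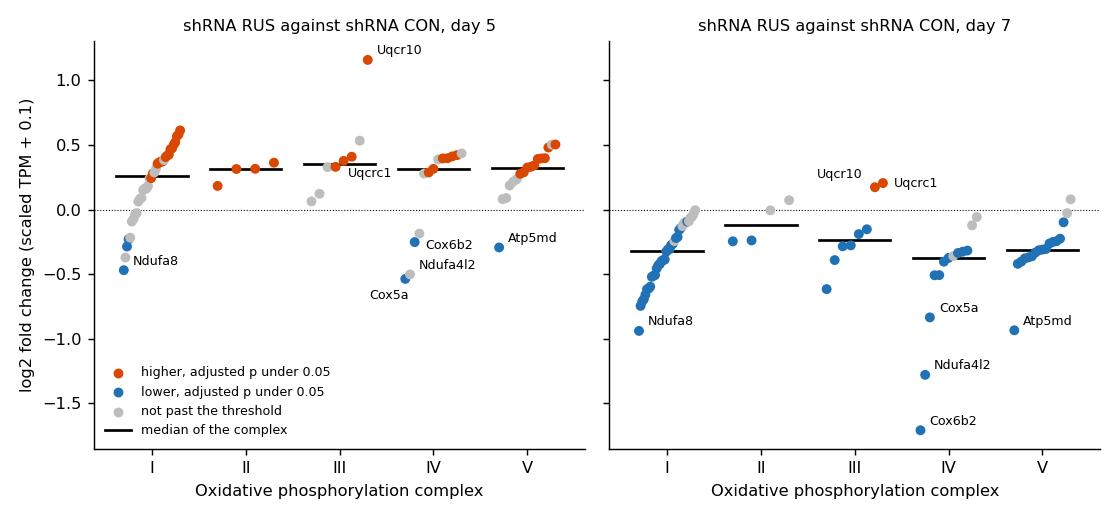
Log2 fold change of each of the 78 subunits (vertical axis) in shRNA RUS against shRNA CON by complex I to V (horizontal axis), day 5 at left and day 7 at right; each point is 1 gene, colour gives the limma call and the line the median of the complex. The medians were 0.26 to 0.35 on day 5 and -0.37 to -0.12 on day 7, with Uqcr10 at 1.16 on day 5 and Cox6b2 at -1.71 on day 7.

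Complex I takes electrons from NADH through Ndufv1, the flavin-binding core subunit. Its scaled TPM was 180.5, 188.1, 194.7 and 193.8 in day 5 shRNA CON and 272.4, 278.4, 271.2 and 230.6 in day 5 shRNA RUS. Every shRNA RUS library lay above every control, and Ndufv1 rose by 0.47 on the log2 scale (SE 0.07, adjusted p = 0.000794), or by 0.54 without the library labelled replicate 4. The day 7 values were 134.3, 120.9, 122.9 and 125.1 against 124.4, 118.1, 118.5 and 118.5, a log2 fold change of -0.05 (adjusted p = 0.286). Ndufs7, an iron-sulphur core subunit near the ubiquinone site, had 171, 196.5, 205.3 and 228.1 against 344.4, 357.3, 341.5 and 203.5 on day 5. The library labelled replicate 4 lay among the controls and the call at a log2 fold change of 0.61 (adjusted p = 0.0257) was lost in 8 of the alternatives. Without that library it was 0.81 (adjusted p = 0.000256). Ndufs1, the largest core subunit, was at 0.15 on day 5 (adjusted p = 0.0708) and at -0.06 on day 7 (adjusted p = 0.253).

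Among the supernumerary subunits of complex I, Ndufa3 was one of the 3 members with the highest day 5 change. It rose from 628.9 ± 44.5 to 941.9 ± 102.5 scaled TPM (SD, n = 4; log2 fold change 0.58, adjusted p = 0.00116) and was at 368.2 ± 25.5 against 339.6 ± 16.6 on day 7 (-0.10, adjusted p = 0.154). Tfpt overlaps Ndufa3 on the other strand. Ndufa1, an X-linked accessory subunit needed to build the membrane arm, had 259.2, 321.3, 273.6 and 327.3 in shRNA CON and 426.1, 385.2, 403.3 and 345.5 in shRNA RUS on day 5. Day 7 gave 284.6, 263.5, 284.6 and 238.9 against 185.5, 184.1, 192.8 and 175.8. Neither day showed an overlap. Ndufa1 rose by 0.41 on day 5 (adjusted p = 0.00978) and fell by 0.52 on the log2 scale on day 7 (adjusted p = 8.2e-05). The day 5 call was lost with the replicate number as a block (adjusted p = 0.0522).

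Ndufa8, a supernumerary subunit on the intermembrane side, went down on both days. Its scaled TPM was 151.3, 181.1, 177.3 and 180.2 against 133.1, 134.1, 129.6 and 102.6 on day 5, and 132.4, 127.2, 118.3 and 124.5 against 69.42, 60.41, 66.29 and 63.35 on day 7. The groups did not overlap on either day, with log2 fold changes of -0.47 (adjusted p = 0.006; -0.375 without the library labelled shRNA RUS replicate 4) and -0.94 (adjusted p = 7.48e-07). The gene lies on chromosome 2 (GRCm38, 36036326 to 36049406, minus strand). Ndufab1, the mitochondrial acyl carrier protein, did not pass on day 5 (0.06, adjusted p = 0.716) and fell on day 7 (-0.46, adjusted p = 5.58e-05).

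Complex II has no subunit in mitochondrial DNA and also belongs to the citric acid cycle. Sdha, its flavoprotein, was tight between libraries. It had 314.9, 309.4, 319.2 and 312.7 scaled TPM in day 5 shRNA CON and 397.3, 384.8, 386.3 and 392.6 in day 5 shRNA RUS. Here the library labelled replicate 4 lay with its group, and Sdha rose by 0.32 (SE 0.04, adjusted p = 0.000477), or 0.11 (past the threshold no longer) with factors from genes of at least 100 TPM. On day 7 Sdha had 220.2, 212, 232.9 and 226.2 against 233, 234.7, 229.8 and 230.1, a log2 fold change of 0.07 (adjusted p = 0.106). Gm16125 overlaps Sdha on the other strand. The iron-sulphur subunit Sdhb rose by 0.36 on day 5 (adjusted p = 0.0124), or by 0.45 without that library, a call lost under the replicate block (adjusted p = 0.0504) and with the 100 TPM factors (0.153, adjusted p = 0.0614), and changed by -0.24 on day 7 (adjusted p = 0.00101). Of the membrane anchors on day 7, Sdhc was at -0.01 (adjusted p = 0.9) and Sdhd at -0.25 (adjusted p = 0.000522), after day 5 values of 0.31 (adjusted p = 0.00124) and 0.18 (adjusted p = 0.0371). The day 5 call of Sdhc was lost after quantile normalization (0.138, adjusted p = 0.0943) and with the 100 TPM factors (0.104, adjusted p = 0.168). The day 5 call of Sdhd was lost in 12 of 19 alternatives, and its value turned to -0.03 under the 100 TPM factors.

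Complex III held the subunit with the largest day 5 rise of all members. Uqcr10, a small supernumerary subunit, had 240.6, 331.1, 299.9 and 319.6 scaled TPM in day 5 shRNA CON and 726.3, 708.1, 726.8 and 504.1 in day 5 shRNA RUS. All 4 shRNA RUS libraries were above the controls, the one labelled replicate 4 being the nearest, with a log2 fold change of 1.16 (SE 0.14, adjusted p = 0.00032), or 1.29 without that library. On day 7 it had 243.2, 223.1, 221.6 and 202.5 against 240.2, 257.5, 247.7 and 246.7. These groups overlapped, and the call at 0.17 (adjusted p = 0.0261) was lost without a variance trend and when any of 4 single libraries was left out. Uqcr10 lies on chromosome 11 (GRCm38, 4701973 to 4704342, minus strand).

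Uqcrc1, a core protein of complex III, was the other subunit that rose on both days. Its scaled TPM was 288.1, 312.9, 320.8 and 324.6 against 370.7, 463, 445.4 and 379.4 on day 5 and 175.8, 175.7, 175.5 and 159.8 against 179.9, 197, 204 and 203.6 on day 7. The groups did not overlap on either day, with log2 fold changes of 0.41 (adjusted p = 0.00537) and 0.20 (adjusted p = 0.01). With the 100 TPM factors the day 5 value was 0.199 and did not pass (adjusted p = 0.0549). Without day 7 shRNA CON replicate 4, the lowest of its group, the day 7 value was 0.167 (adjusted p = 0.0221). Its partner Uqcrc2 was at 0.06 (adjusted p = 0.418) and -0.28 (adjusted p = 6.59e-05), and the Rieske protein Uqcrfs1 at 0.33 (adjusted p = 0.0263) and -0.28 (adjusted p = 0.000198). The day 5 call of Uqcrfs1 was lost in 10 of 19 alternatives.

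In complex IV, the ubiquitous subunits Cox6b1, Cox6c, Cox7a2, Cox7b and Cox7c rose on day 5 by 0.29 to 0.42 on the log2 scale, and the call was lost in 12 of 19 alternatives for Cox7a2, in 5 for Cox7c and in 2 for Cox6b1. The ubiquitous Cox6a1 (0.43, adjusted p = 0.0847) and Cox8a (0.39, adjusted p = 0.212) did not pass on day 5, and both passed without the library labelled shRNA RUS replicate 4 (0.61, adjusted p = 0.00374, and 0.575, adjusted p = 0.0372). Of the 5 that rose, Cox7b alone did not pass on day 7 (-0.06, adjusted p = 0.198). Ndufa4, named as a complex I subunit but counted with complex IV, in which it is found, was at 0.40 (adjusted p = 0.0067; 0.46 without that library, and 0.12, adjusted p = 0.133, after quantile normalization) and -0.12 (adjusted p = 0.0631). Cox5a, a matrix-side subunit whose gene is overlapped by Gm26631 on the other strand, was 1 of 2 complex IV subunits that fell on day 5, the other being Cox6b2. It had 318.1, 422.8, 390.1 and 450.8 scaled TPM in shRNA CON and 276.4, 286.7, 279.2 and 240.2 in shRNA RUS, with no overlap and a log2 fold change of -0.54 (adjusted p = 0.00487). The day 7 values were 246.1, 250.6, 234.5 and 225.7 against 130.9, 133.3, 139.2 and 127.6, a log2 fold change of -0.83 (adjusted p = 7.22e-07). Its partner Cox5b was at 0.28 (adjusted p = 0.116) and -0.33 (adjusted p = 0.000842).

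The lowest fold change of any member was that of Cox6b2, an isoform of Cox6b known best from testis, on day 7. It had 279, 271, 254.3 and 278.4 scaled TPM in shRNA CON and 79.02, 77.16, 87.76 and 84.25 in shRNA RUS. No library of either group came near the other, and Cox6b2 was 69.4% lower (log2 fold change -1.71, SE 0.05, adjusted p = 5.04e-08). On day 5 it had 504.6, 484.4, 478.3 and 482.9 against 389.2, 455.2, 442.7 and 356.3, also without overlap, but the call at -0.25 (adjusted p = 0.0377) was lost in 9 alternatives. Cox6b2 lies on chromosome 7 (GRCm38, 4751792 to 4753094, minus strand). Of the summed TPM of Cox6b1 and Cox6b2, Cox6b2 made up 35.6% to 41.8% in day 5 shRNA CON, 25.6% to 29.7% in day 5 shRNA RUS, 34.4% to 38.7% in day 7 shRNA CON and 16.7% to 19.5% in day 7 shRNA RUS. The isoform share was thus lower in shRNA RUS on both days without overlap, also where Cox6b1 rose.

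Other isoform pairs of complex IV were measured at low levels of the tissue-restricted partner. Cox7a1, the form of heart and skeletal muscle, was at 34.5 ± 5.55 scaled TPM in day 5 shRNA CON and 30.1 ± 3.66 in day 5 shRNA RUS (log2 fold change -0.19, adjusted p = 0.291), and at 10.3 ± 2.28 and 8.01 ± 2.08 on day 7 (-0.36, adjusted p = 0.206). It made up 5.48% to 7.49% of Cox7a1 plus Cox7a2 in day 5 shRNA CON and 4.06% to 5.2% in day 5 shRNA RUS, which did not overlap. On day 7 the share was 2.46% to 3.45% in shRNA CON and 2.0% to 3.63% in shRNA RUS, which overlapped. Ndufa4l2, a relative of Ndufa4 known as a hypoxia target, was at 1.83 ± 0.312 and 0.709 ± 0.233 scaled TPM on day 7 and fell (log2 fold change -1.28, adjusted p = 0.00116). On day 5 it was at 3.34 ± 0.728 against 2.36 ± 0.636 (-0.50, adjusted p = 0.122). Its share of Ndufa4l2 plus Ndufa4 was 0.324% to 0.442% in day 5 shRNA CON, 0.149% to 0.245% in day 5 shRNA RUS, 0.256% to 0.378% in day 7 shRNA CON and 0.1% to 0.195% in day 7 shRNA RUS, lower in shRNA RUS on both days without overlap.

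Complex V carried the highest level of all members. Atp5b, the catalytic beta subunit, had 1649, 1901, 1835 and 1862 scaled TPM in day 5 shRNA CON and 2431, 2361, 2557 and 2172 in day 5 shRNA RUS. The groups were apart, with a log2 fold change of 0.40 (SE 0.07, adjusted p = 0.0032). On day 7 it had 1051, 989.3, 1019 and 1030 against 969.4, 952.9, 922.6 and 936.6, which again did not overlap, and changed by -0.10 (adjusted p = 0.0217), a call lost in 6 of 18 alternatives and a value that was 0.02 after quantile normalization. The alpha subunit Atp5a1 was at 0.33 (adjusted p = 0.0031) and -0.03 (adjusted p = 0.48), or 0.08 on day 7 after quantile normalization. That scaling also ended the day 5 calls of Atp5b (0.157, adjusted p = 0.0855) and Atp5a1 (0.0623, adjusted p = 0.363). The c-ring genes Atp5g1, Atp5g2 and Atp5g3 encode the same mature protein. Of their summed TPM, Atp5g1 made up 22.6% to 27.1%, Atp5g2 26.5% to 30.8% and Atp5g3 44.5% to 50.1% over all 16 libraries. The Atp5g3 share was 45.9% to 49.2% in day 5 shRNA CON and 44.5% to 45.4% in day 5 shRNA RUS, without overlap, and on day 5 Atp5g1 (0.33, adjusted p = 0.017) and Atp5g2 (0.34, adjusted p = 0.0205) rose while Atp5g3 did not pass (0.19, adjusted p = 0.192). These calls depended on the alternatives: those of Atp5g1 and Atp5g2 were lost in 5 and 9 of 19, and Atp5g3 passed without the library labelled shRNA RUS replicate 4 (0.28, adjusted p = 0.0121). On day 7 the Atp5g3 shares overlapped, at 47.3% to 49.7% and 47.3% to 50.1%. Atp5md, a small membrane subunit picked here for its values, was the 1 complex V member that fell on both days: it had 786.4 ± 98.7 against 637.5 ± 26.9 scaled TPM on day 5 (-0.29, adjusted p = 0.0323; -0.26, adjusted p = 0.0578, without that library) and 581.8 ± 29.5 against 301.4 ± 13.3 on day 7 (-0.93, adjusted p = 3.9e-07).

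**Figure D3:**
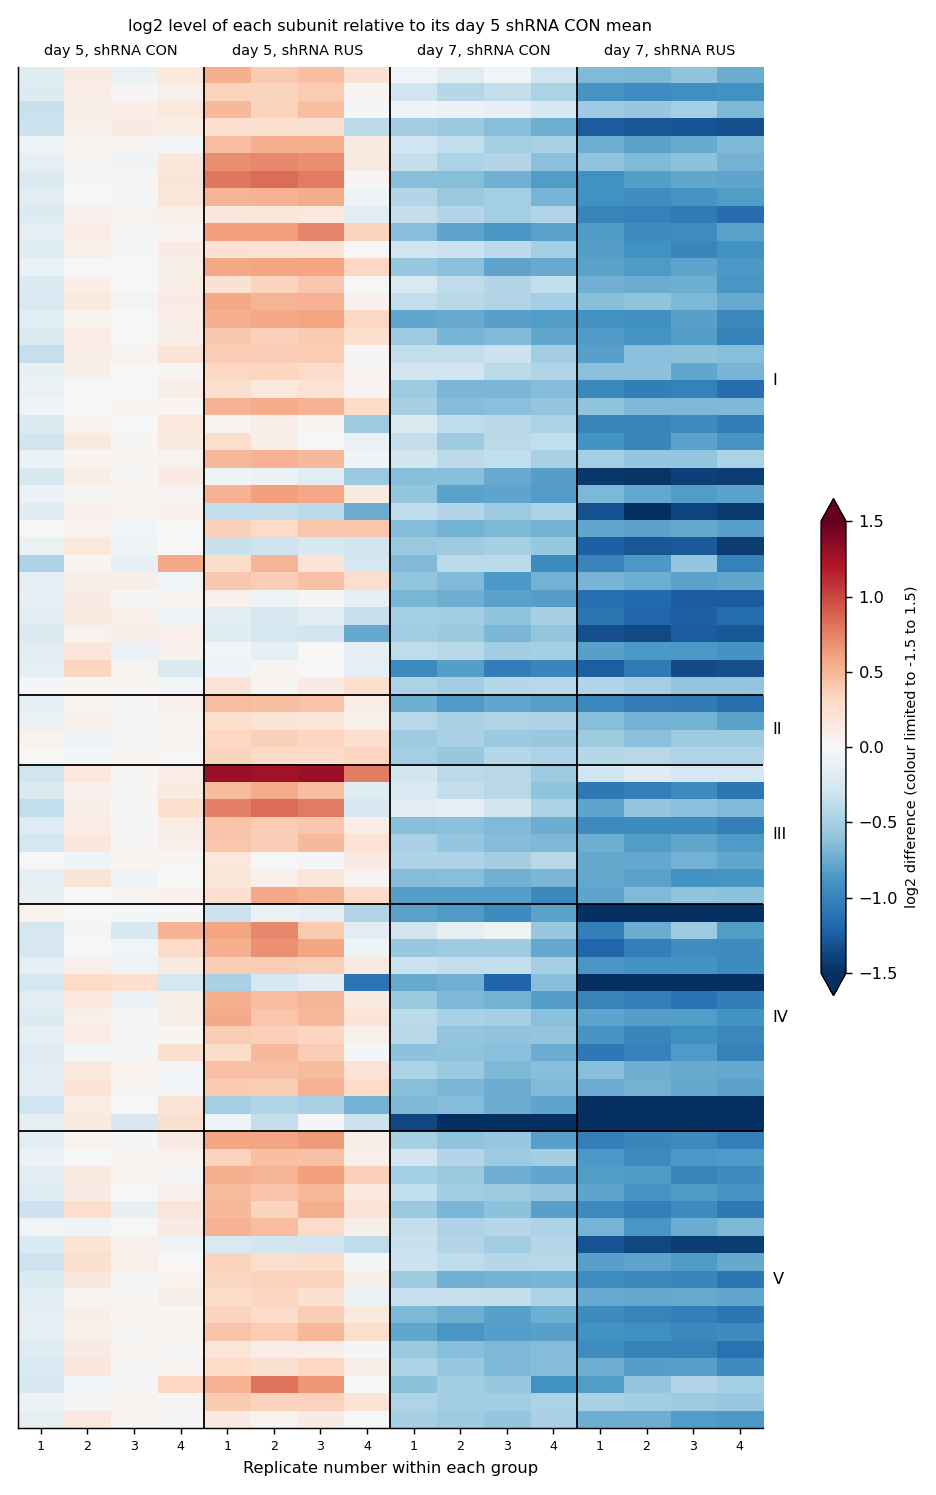
Log2 difference of scaled TPM from the day 5 shRNA CON mean (colour, limited to -1.5 to 1.5) for the 78 subunits in rows by complex and the 16 libraries in columns by group. The first 3 day 5 shRNA RUS libraries are raised in most rows, the library labelled replicate 4 lies nearer to the controls (median 0.0581 against 0.352 to 0.378), and all day 7 libraries are lower.

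**Figure D4:**
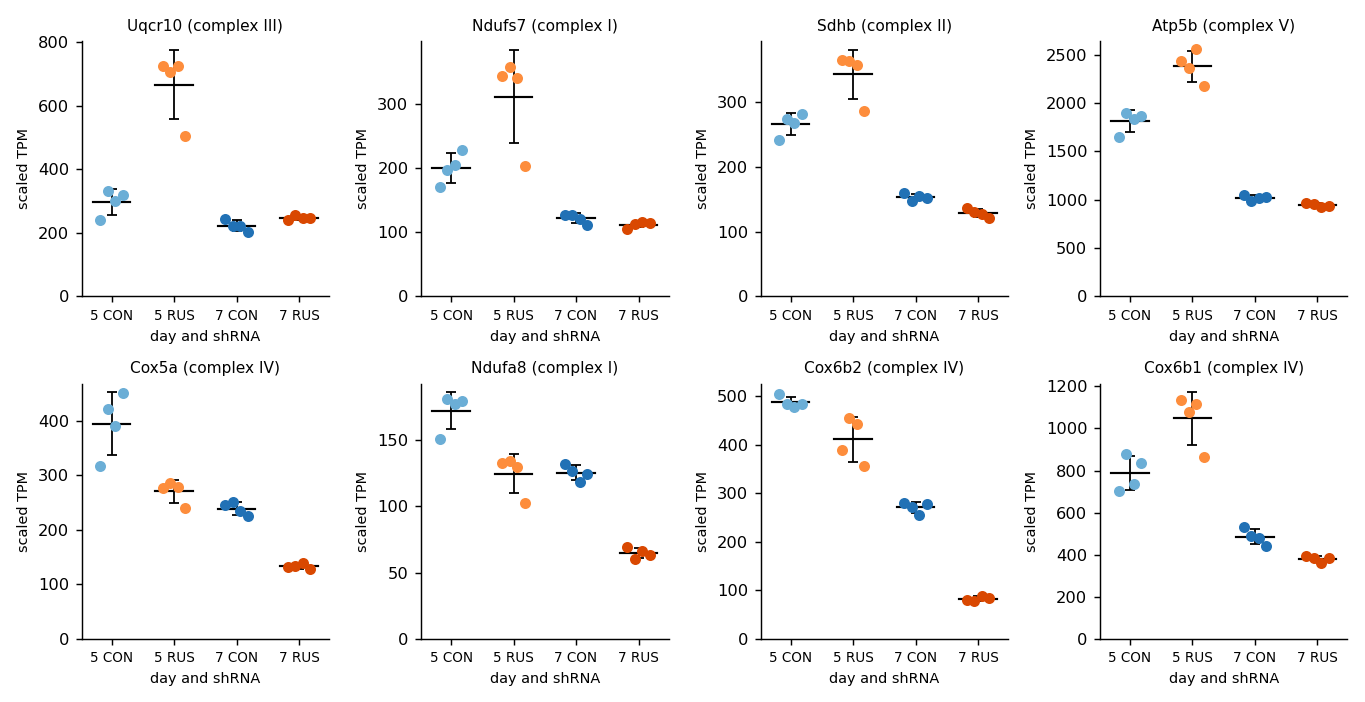
Scaled TPM (vertical axes, from 0) of single subunits in the 4 groups; points are libraries, and the bar and whiskers are the mean and SD of 4 libraries. Uqcr10 was at 666.3 in day 5 shRNA RUS against 297.8 in its control, and Cox6b2 at 82.05 in day 7 shRNA RUS against 270.7.

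Whether the effect of the shRNA differed between the days was tested directly, as the day 7 effect minus the day 5 effect in 1 limma fit over all 16 libraries. It was lower on day 7 for 81 of 95 members and higher for 0, where 14.6% of 23789 lines were lower and 15.2% higher. At an unadjusted p under 0.05 limma called 0 members higher, and 1 passed with TPM as deposited and 2 with the 100 TPM factors. Of the 78 subunits 70 passed (median difference -0.58 against 0.04 for all lines): 33 of 36 in complex I, 4 of 4 in complex II, 7 of 8 in complex III, 10 of 13 in complex IV and 16 of 17 in complex V. With other scalings 54 to 81 members were lower, and the median difference over the subunits ran from -0.597 to -0.287. The difference was -1.47 for Cox6b2 (adjusted p = 2.06e-07), -0.997 for Uqcr10 (adjusted p = 0.000318) and -0.94 for Ndufa1 (adjusted p = 4.02e-05). The difference did not pass for Cox5a (-0.31, adjusted p = 0.0667), Uqcrc1 (-0.22, adjusted p = 0.117), Cox7a1 (-0.19, adjusted p = 0.648) or Ndufa4l2 (-0.78, adjusted p = 0.0936). Of these, Cox5a (-0.37, adjusted p = 0.0257) and Ndufa4l2 (-0.976, adjusted p = 0.0216) passed without the day 5 library labelled shRNA RUS replicate 4. For Sdha it was -0.26 (adjusted p = 0.000778), but 0.04 with the 100 TPM factors.

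Set side by side, the calls of both days gave 6 patterns among the 78 subunits. In 26 a rise on day 5 was followed by a fall on day 7, and the difference itself passed in all 26. In 12 the rise on day 5 stood alone and in 28 the fall on day 7 stood alone. In 6 the gene fell on both days, 2 rose on both days (Uqcr10 and Uqcrc1) and 4 passed on neither day. Without the day 5 library labelled shRNA RUS replicate 4 the same 6 counts were 39, 13, 16, 5, 2 and 3. The calls behind these patterns depended on the scaling. With TPM as deposited, quantile normalization and the 100 TPM factors, 27, 19 and 20 subunits rose on day 5, against 40. The difference passed for 63, 55 and 48, against 70. Of all lines, 14.8% were higher on day 5 and 25.8% lower on day 7, and their share with each pattern was not counted. The 26 were spread over the complexes, with 9 in complex I, 2 in complex II, 2 in complex III, 4 in complex IV and 9 in complex V.

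The median change with time was further from 0 than that with the shRNA. In shRNA CON 84 of 95 members were lower on day 7 than on day 5 and 1 was higher, where 21.6% of all lines were lower and 26.9% higher. Of the 78 subunits 74 fell, with a median log2 fold change of -0.57 against 0.07 for all lines. In shRNA RUS 92 of 95 members were lower and 0 higher in limma (0 at an unadjusted p under 0.05), where 25.8% of all lines were lower and 35.0% higher, and 1 member was called higher with the 100 TPM factors. All 78 subunits fell, with a median of -1.16 against 0.13. With TPM as deposited, quantile normalization and the 100 TPM factors this subunit median was -0.837, -0.683 and -0.658. All lines were then at 0.415, 0.0142 and 0.573. In shRNA CON the same scalings gave subunit medians of -0.417, -0.33 and -0.358, against 0.205, -0.00319 and 0.258 for all lines. Both days did not overlap for 78 lower and 1 higher members in shRNA CON, against 20.8% and 26.1% of all lines, and for 91 lower and 0 higher in shRNA RUS, against 22.5% and 30.0%. The medians by complex ran from -0.65 (complex IV) to -0.52 (complex II) in shRNA CON and from -1.26 (complex IV) to -0.88 (complex II) in shRNA RUS. The comparisons share libraries with those of the shRNAs within a day. Cell markers and level moved with time too. In shRNA CON the NSC and radial glia markers summed to a mean of 14000 scaled TPM on day 5 and 6980 on day 7, the astrocyte markers to 4060 and 1970, and the microglia markers to 84.2 and 196. In shRNA RUS the same sums were 19800 and 7350, 5220 and 2300, and 78.1 and 94.9. Neuron markers summed to 560 and 785 in shRNA CON and 582 and 794 in shRNA RUS, with 6 and 7 of 8 higher on day 7, and oligodendrocyte lineage markers to 273 and 388 and to 226 and 252. Other lines over 300 TPM had a median log2 fold change with time of -0.24 in shRNA CON and -0.62 in shRNA RUS, against -0.59 and -1.22 for the 38 subunits of that class. The part of cell makeup and level in the change with time was not tested.

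Cox7a1 had the lowest change of any member in shRNA CON, from 30.73, 37.87, 28.84 and 40.39 scaled TPM on day 5 to 13.15, 11.09, 8.751 and 8.194 on day 7 (log2 fold change -1.74, adjusted p = 1.64e-06), and was at -1.93 in shRNA RUS (adjusted p = 2.88e-07). In shRNA RUS the lowest was Cox6b2, at -2.32 (SE 0.07, adjusted p = 6.68e-13), against -0.85 in shRNA CON (adjusted p = 4.86e-08). Ndufa1 was at -0.14 in shRNA CON (adjusted p = 0.187) and -1.08 in shRNA RUS (adjusted p = 1.73e-08). Atp5b was at -0.82 (adjusted p = 4.57e-09) and -1.33 (adjusted p = 2.08e-11).

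The assembly factors of complex I build the enzyme but are not part of it. They were expressed at 12.2 to 75.1 scaled TPM in day 5 shRNA CON, with a median of 33.2 against 240.6 for the subunits of complex I, whose lowest was at 61.3. On day 5 limma called 1 of 8 higher and 0 lower (0 at an unadjusted p under 0.05), and on day 7 it called 5 of 8 lower. These were 12.5% higher on day 5, against 14.8% of all lines, and 62.5% lower on day 7, against 25.8%. Ndufaf1, which acts on the membrane arm, had 30.62, 32.94, 32.31 and 31.46 scaled TPM in day 5 shRNA CON and 41.02, 43.59, 44.16 and 43.05 in day 5 shRNA RUS, a rise of 0.43 (adjusted p = 0.000271), and was at 0.12 on day 7 (adjusted p = 0.0618). Ndufaf3 was at 0.09 on day 5 (adjusted p = 0.656) and fell on day 7 (-0.65, adjusted p = 2.28e-05). It was the member that rose with time in shRNA CON (0.35, adjusted p = 0.0148), a call lost without day 5 shRNA CON replicate 1. Ndufaf5 fell with time in both cultures (-1.16 in shRNA CON, adjusted p = 5.2e-10, and -1.15 in shRNA RUS, adjusted p = 3.92e-10) and its difference between the days was 0.01 (SE 0.09, adjusted p = 0.968). Ndufaf4 was at -0.20 on day 5 (adjusted p = 0.135) and -0.01 on day 7 (adjusted p = 0.957). Ndufaf8 fell on day 7 (-0.87, adjusted p = 0.002). Cox7a2l, listed here as a supercomplex factor, rose on day 5 (0.44, adjusted p = 0.000932) and was at 0.04 on day 7 (adjusted p = 0.382). What its protein does in cells of this strain was not tested.

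Of the 11 copies, pseudogenes and repeated lines, 0 passed either way on day 5, where 14.8% of all lines were higher and 17.9% lower. On day 7, 6 of the 8 tested fell, where 25.8% of all lines were lower. Without the day 5 library labelled shRNA RUS replicate 4, Atp5pb-ps passed on day 5 (0.465, adjusted p = 0.0392). With all libraries, limma called 0 of the 11 on day 5 at an unadjusted p under 0.05 as well. Ndufs5-ps was at -0.81 on day 7 (adjusted p = 0.000789) and Uqcrh-ps1 at -0.19 (adjusted p = 0.619). A second low line named Atp5o ranged from 0 to 5.74 scaled TPM between libraries and passed in no comparison. Reads of such lines and of their parent genes may be shared between them, and Ndufb4 with Ndufb4c, and Cox6c with Cox6c2, are close copies whose split is uncertain. Of the 75 subunits placed on the GENCODE annotation of GRCm38, 26 are overlapped by a gene on the other strand, and the sources used here do not say whether reads were counted by strand.

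The symbol pattern misses 4 genes of the chain. Cox4i1, the ubiquitous form of the largest nuclear subunit of complex IV, rose on day 5 (0.39, adjusted p = 0.0202) and fell on day 7 (-0.26, adjusted p = 0.00135). Cyc1 (cytochrome c1 of complex III) was at 0.37 (adjusted p = 0.00189) and -0.10 (adjusted p = 0.0272). Cycs, the mobile cytochrome c, was at -0.14 (adjusted p = 0.165) and -0.61 (adjusted p = 2.09e-05). Cox4i2, the oxygen-regulated form, was low and fell on both days (-0.84, adjusted p = 0.000141, and -2.18, adjusted p = 4.16e-05).

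The 13 subunits encoded in mitochondrial DNA were tested in the same fit. On day 5 limma called 0 higher (0 at an unadjusted p under 0.05) and 2 lower (median log2 fold change -0.01), namely mt-Nd2 (-0.43, adjusted p = 0.00743) and mt-Atp8 (-0.87, adjusted p = 0.0112). On day 7 it called 4 higher and 0 lower (1 at an unadjusted p under 0.05; median 0.18), among them mt-Co1 (0.18, adjusted p = 0.0169) and mt-Nd4 (0.30, adjusted p = 0.0216). Without the day 5 library labelled shRNA RUS replicate 4, 3 of the 13 were lower on day 5. Of the 13, 15.4% were lower on day 5, against 17.9% of all lines, and 30.8% were higher on day 7, against 23.4%. Mitochondrial transcripts have short polyA tails, and how evenly polyA selection captured them was not tested.

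Lists of other metabolic and ribosomal genes were counted the same way, beside 14.8% of all lines higher and 17.9% lower on day 5 and 23.4% higher and 25.8% lower on day 7. Of 78 mitochondrial ribosomal protein genes 27 rose and 3 fell on day 5 (median 0.18), and on day 7 limma called 0 higher (0 at an unadjusted p under 0.05) and 56 lower (-0.26). Of 100 cytosolic ribosomal protein genes 48 rose and 4 fell on day 5 (0.29) and 5 rose and 67 fell on day 7 (-0.22). Of 17 citric acid cycle genes 9 rose and 2 fell on day 5 and 5 rose and 8 fell on day 7, and of 18 glycolysis lines 6 rose and 2 fell on day 5 and 8 rose and 8 fell on day 7. Of 38 assembly factors of all complexes 9 rose and 2 fell on day 5 and 7 rose and 13 fell on day 7. Some of these shares were near or under those of all lines, as the 11.1% of glycolysis lines lower on day 5 and the 18.4% of assembly factors higher on day 7. Without the library labelled shRNA RUS replicate 4, the day 5 rises numbered 47 of 78, 80 of 100, 10 of 17, 10 of 18 and 18 of 38 in the same order. No difference between these lists and the subunits was tested.

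Among 14 regulators of mitochondrial biogenesis, 1 rose and 1 fell on day 5 (7.14% each, against 14.8% and 17.9% of all lines), and 7 rose and 2 fell on day 7 (50.0% and 14.3%, against 23.4% and 25.8%). Without the day 5 library labelled shRNA RUS replicate 4, 2 rose and 2 fell on day 5. On day 7, when most subunits were lower, the coactivators Ppargc1a (0.67, adjusted p = 6.27e-06) and Pprc1 (0.51, adjusted p = 0.00399) and the nuclear receptor Esrra (0.55, adjusted p = 0.00072) were higher. Tfam, which packages and transcribes mitochondrial DNA, fell (-0.41, adjusted p = 0.000507), and Nrf1, an activator of many subunit genes, was at -0.11 (adjusted p = 0.0764).

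Fold changes were also taken by level and length over all genes. On day 5, other lines of 1 to 3 TPM had a median log2 fold change of -0.20 and the 389 other lines over 300 TPM had 0.26, against 0.34 for the 38 subunits over 300 TPM. In the class from 100 to 300 TPM the medians were 0.14 for 1144 other lines and 0.28 for 36 subunits. On day 7 other lines showed no steady order by level, with -0.08 at 1 to 3 TPM, 0.04 at 10 to 30 TPM and -0.09 over 300 TPM. The subunits over 300 TPM were at -0.32 on day 7, and from 100 to 300 TPM other lines were at -0.06 and subunits at -0.28. Among transcripts of up to 700 bases, other lines had 0.07 on day 5 and -0.16 on day 7, and the 42 subunits of that length had 0.34 and -0.33. Among transcripts of 700 to 1000 bases the 18 subunits were at 0.09 on day 5, against 0.07 for other lines, and at -0.40 on day 7, against -0.14. The 2 subunits from 30 to 100 TPM were at -0.16 on day 5, where other lines were at 0.07. The gap between subunits and other lines thus varied with the class, and the part of level and length in the result was not tested.

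**Figure D5:**
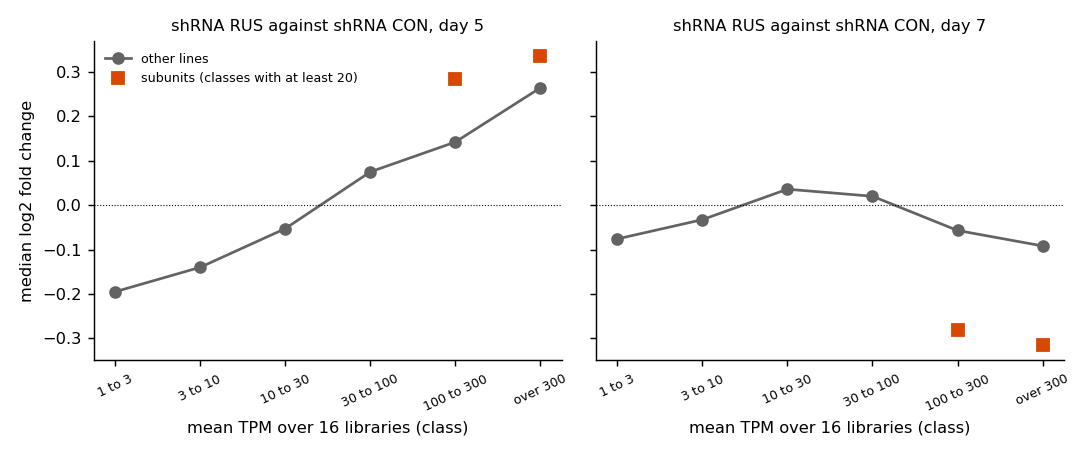
Median log2 fold change (vertical axis) of shRNA RUS against shRNA CON by class of mean TPM (horizontal axis) for other lines (circles) and for subunits in classes of at least 20 (squares), day 5 and day 7. Other lines ran from -0.20 at 1 to 3 TPM to 0.26 over 300 TPM on day 5, where the subunits were at 0.34, and on day 7 the subunits over 300 TPM were at -0.32 against -0.09.

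Cell type markers moved with the shRNA, some of them in sum and others gene by gene. All 8 proliferation markers fell on both days, with sums of 697 to 731 scaled TPM against 391 to 438 on day 5 and 721 to 735 against 286 to 324 on day 7. Astrocyte markers summed to 4010 to 4140 against 5170 to 5300 on day 5, but of the 7 only 2 rose and 1 fell (median log2 fold change 0.03). On day 7, 3 of the 7 rose and 1 fell. Of the 8 NSC and radial glia markers 3 rose and 2 fell on day 5, or 3 and 1 without the library labelled shRNA RUS replicate 4, and 2 rose and 4 fell on day 7. Neuron markers overlapped in sum, at 524 to 602 against 555 to 612 on day 5 and 756 to 839 against 744 to 871 on day 7, while of the 8 single markers 3 rose and 2 fell on day 5 (2 and 2 without that library) and 4 rose and 2 fell on day 7 (median 0.33). Of the 8 microglia markers 3 fell on day 5 and all 8 on day 7, with day 7 sums of 191 to 202 against 79.9 to 103. Of the 8 oligodendrocyte lineage markers 4 fell on day 5 (median -0.675; 5 without that library) and 6 on day 7 (median -0.60), with day 7 sums of 375 to 412 against 239 to 263. Fibroblast and vascular markers summed to 14.9 to 16.2 against 30.7 to 34.7 on day 7, with 2 of 6 tested higher. The part of cell makeup in the subunit results was not tested.

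Promoters were read because the subunits moved together. RefSeq windows of GRCm38.p6, from 250 bases before to 50 after the start of the gene, were at hand for 66 of the 78 subunits. The windows of the subunits with the most extreme fold changes, Uqcr10 (day 5) and Cox6b2 (day 7), and of a pair of subunits that hold known activator words, Cox6a1 and Atp5k, are printed 5′ to 3′ on the coding strand, with the NRF1 word and the ETS word in capitals. Uqcr10 is at chr11:4704295-4704594, Cox6b2 at chr7:4753045-4753344, Cox6a1 at chr5:115348909-115349208 and Atp5k at chr5:108434350-108434649, all on the minus strand.
Uqcr10: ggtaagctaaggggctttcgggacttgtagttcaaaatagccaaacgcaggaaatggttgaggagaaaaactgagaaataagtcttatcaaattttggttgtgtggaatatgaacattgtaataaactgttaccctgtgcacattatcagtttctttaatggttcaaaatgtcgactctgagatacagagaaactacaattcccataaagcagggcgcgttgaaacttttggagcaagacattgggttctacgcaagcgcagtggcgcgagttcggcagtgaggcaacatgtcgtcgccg
Cox6b2: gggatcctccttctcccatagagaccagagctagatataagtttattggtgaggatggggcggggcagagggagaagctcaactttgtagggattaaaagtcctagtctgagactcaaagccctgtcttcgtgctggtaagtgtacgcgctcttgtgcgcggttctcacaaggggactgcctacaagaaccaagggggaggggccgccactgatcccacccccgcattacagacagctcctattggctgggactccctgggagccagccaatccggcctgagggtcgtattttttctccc
Cox6a1: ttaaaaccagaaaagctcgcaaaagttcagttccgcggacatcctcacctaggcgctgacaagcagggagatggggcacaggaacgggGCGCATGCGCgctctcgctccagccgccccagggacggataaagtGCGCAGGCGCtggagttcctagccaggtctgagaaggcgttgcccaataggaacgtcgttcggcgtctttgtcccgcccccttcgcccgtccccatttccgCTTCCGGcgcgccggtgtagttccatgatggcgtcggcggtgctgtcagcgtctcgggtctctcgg
Atp5k: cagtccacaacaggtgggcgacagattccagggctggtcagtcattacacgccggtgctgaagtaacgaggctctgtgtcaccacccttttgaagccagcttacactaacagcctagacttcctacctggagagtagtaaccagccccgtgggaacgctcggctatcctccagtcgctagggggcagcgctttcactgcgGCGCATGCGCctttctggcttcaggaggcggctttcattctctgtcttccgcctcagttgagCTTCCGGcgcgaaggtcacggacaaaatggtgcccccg

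The words searched, on both strands and with any overlap counted, were GCGCA followed by any base and GCGC for NRF1, CCGGAAG for the ETS factors that include GABP, AAGATGGCG for YY1, and GGGCGG for the GC box. The NRF1 word was in 17 of the 66 subunit windows (25.8%), against 5.19% of all 27025 windows and 11.1% of the 11224 windows of symbols with a mean of at least 1 TPM. The ETS word was in 25.8%, against 9.93% and 19.0%, and the YY1 word in 10.6%, against 1.64% and 3.33%. The GC box was in 40.9%, against 38.2% and 68.2%. The Cox6a1 window holds the NRF1 word at bases 89 to 98 and 134 to 143 and the ETS word at 235 to 241, and the Atp5k window holds them at 201 to 210 and 263 to 269. Neither word is in the Uqcr10 or Cox6b2 window. Subunits with and without the NRF1 word had median log2 fold changes of 0.28 and 0.33 on day 5 and -0.31 and -0.34 on day 7. Those with and without the ETS word had 0.36 and 0.29 on day 5 and -0.34 and -0.31 on day 7.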

How the data were processed

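PolyA-selected RNA was sequenced from 16 libraries, 4 per shRNA and day. The authors aligned and quantified reads with STAR and RSEM on mm10 and deposited TPM values per gene in 1 table per day. Their DESeq columns of fold changes and p-values were not used. Members and lists were chosen with earlier results of these data known. Libraries were divided by median-ratio factors (0.845 to 1.1) from genes of at least 1 TPM in all libraries, which gave scaled TPM. limma 3.58.1 (R 4.3.3, trend, two-sided, Benjamini-Hochberg over all lines, threshold 0.05) was fitted to log2(scaled TPM + 0.1), a scale that understates changes of low genes, for lines with a mean of at least 0.1 TPM. Each day was fitted on its 8 libraries with factors of its own, and day contrasts on all 16, leaving out 106 lines whose symbols differ between tables. The pipeline was tested on simulated data. Named members were a fixed list of core, isoform and regulatory subunits and the 3 highest and lowest per comparison (44 in all, 1 of which is not reported here). Any other named member was chosen after its values were seen. Tables give no depth. Other pseudocounts, filters, scalings, a replicate block and left-out libraries were tried.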

Additional observations from a re-analysis of the deposited data

Results flagged for a closer look

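In 196 groups of 4 libraries, 1 library lay far from the other 3 in 20. Chance sets apart about 1 in 20 groups (9.8 expected if the groups were independent). The groups come from the same libraries, so they are not independent. The day 5 library labelled shRNA RUS replicate 4 was the low one in 12 of the 20. Its median log2 level relative to the day 5 shRNA CON mean was 0.0023 in complex I (others 0.33 to 0.38), 0.18 in complex II (0.31 to 0.33), 0.11 in complex III (0.42 to 0.47), -0.0304 in complex IV (0.38 to 0.39) and 0.0924 in complex V (0.34 to 0.35). Single genes low in it, in scaled TPM, were Uqcr10 (504, others 708 to 727), Ndufs7 (204, others 341 to 357), Ndufv1 (231, others 271 to 278), Ndufa8 (103, others 129.6 to 134), Sdhb (287, others 357 to 365), Cox7c (572, others 669 to 678) and Ndufa4 (987, others 1160 to 1190). Without this library the day 5 log2 fold change of Cox7c was 0.38 against 0.315 with it, and 27 of the 27 day 5 calls among the named members were kept. In day 5 shRNA CON, replicate 1 was low for Ndufa8 (151, others 177 to 181).

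On day 7, shRNA CON replicate 4 was low for Cox6a1 (425, others 490.0 to 501) and Uqcrc1 (160.0, others 176 to 176), and shRNA CON replicate 1 was high for Cox7a2 (368, others 324 to 326). In day 7 shRNA RUS, replicate 2 was low for Atp5g1 (189, others 200.5 to 203) and Sdhc (252, others 268 to 268), replicate 1 was high for Ndufv1 (124, others 118 to 118), and replicate 3 was high for the second low Atp5o line (2.5, others 1.03 to 1.2). Without day 7 shRNA CON replicate 4, 29 of the 29 day 7 calls among the named members were kept.

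The effect of the shRNA on day 7 minus that on day 5 passed the limma test for 35 of the 44 named members and was negative in all 35, on the log2 scale of scaled TPM. In complex I the difference was -0.94 for Ndufa1, -0.73 for Ndufs7, -0.69 for Ndufa3, -0.54 for Ndufv1, -0.53 for Ndufab1, -0.48 for Ndufa8 and -0.23 for Ndufs1. In complex II it was -0.61 for Sdhb, -0.44 for Sdhd, -0.33 for Sdhc and -0.26 for Sdha. In complex III it was -0.997 for Uqcr10, -0.63 for Uqcrfs1, -0.35 for Uqcrc2 and -0.29 for Uqcrb. In complex IV it was -1.47 for Cox6b2, -0.91 for Cox8a, -0.85 for Cox6a1, -0.84 for Cox7c, -0.76 for Cox6b1, -0.75 for Cox6c, -0.67 for Cox7a2, -0.62 for Cox5b, -0.53 for Ndufa4 and -0.47 for Cox7b. In complex V it was -0.76 for Atp5g1, -0.66 for Atp5g2, -0.57 for Atp5g3, -0.51 for Atp5b and -0.37 for Atp5a1. Outside the complexes it was -0.97 for the copy Ndufs5-ps, -0.75 for Ndufaf3, -0.41 for Cox7a2l and -0.32 for Ndufaf1.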

How the results depend on the processing

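Members called higher or lower in shRNA RUS on day 5 (42 and 6) came to 21 and 10 with quantile normalization, 22 and 16 with factors from genes of at least 100 TPM (chosen after seeing the data), 29 and 14 with TPM as deposited, and 6 lower became 3 with no filter and 3 with no variance trend. On day 7 the 2 called higher came to 4 with quantile normalization, 1 with no trend and 6 with the 100 TPM factors. Between days, 0 called higher became 1 in shRNA RUS with the 100 TPM factors, and 0 called higher for the difference of the knockdown effect became 1 with TPM as deposited and 2 with the 100 TPM factors. With 1 library left out, counts ran from 30 to 57 higher and 3 to 6 lower on day 5, from 1 to 3 higher and 67 to 75 lower on day 7, from 0 to 1 higher and 80 to 85 lower in shRNA CON, from 0 to 0 higher and 91 to 93 lower in shRNA RUS, and from 0 to 0 higher and 80 to 86 lower for the difference. Without the library labelled day 5 shRNA RUS replicate 4 and day 5 shRNA CON replicate 1 together, 56 rose and 7 fell on day 5 (also chosen after seeing the data). Divided by library factors, the summed TPM of complexes I to V was 38920 in day 5 shRNA RUS, 21440 in day 7 shRNA CON and 17040 in day 7 shRNA RUS.

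Single members with a call in at least 1 of the fits compared that changed sign were Sdhd on day 5 (-0.0274, 100 TPM factors), Atp5a1 (0.0793) and Atp5b (0.0194) on day 7 (quantile), Ndufaf3 (0.10) and Ndufaf4 (0.30) with time in shRNA RUS (100 TPM factors), and, for the difference of the effect, Atp5a1 (0.0061, quantile), Ndufs1 (0.067), Sdha (0.0374) and Uqcrb (0.0057, all 100 TPM factors). The cause was not tested. Another 60 values with no call in either fit changed sign as well. The medians by complex changed sign in 0 of 575 values but moved by more than the spread in 70, 66 of them under TPM as deposited, quantile normalization and the 100 TPM factors, where those of day 5 ran from 0.0513 to 0.195. Of named members called, 18 of 27 on day 5, 4 of 29 on day 7 and 14 of 35 for the difference lost the call in at least 1 alternative.

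With the replicate number as a block, 23 rose and 3 fell on day 5, and 2 rose and 71 fell on day 7. Deviations of libraries with the same number correlated at -0.252 to 0.101, so no pairing by number was seen. Whether libraries with the same number share a dissection is unknown.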
